A study of Homo sapiens with 3 samples.

Results

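These data describe the genes that carried a MATR3 (matrin 3) PAR-CLIP read cluster in the 3' UTR in each of 3 biological replicates and no cluster annotated as intron in any of them. They were chosen by measured values, the annotation classes of the clusters called in these same libraries, so the presence of 3' UTR clusters and the absence of intron clusters are not findings. Mitochondrial clusters and ribosomal protein genes named RPL or RPS plus digits were left out, and 0 of these genes met the rest of the rule. The rule was met by 107 genes, which is 0.79% of the 13542 gene names with a cluster and 7.53% of the 1421 genes with a 3' UTR cluster in each replicate. The other 1314 of those 1421 genes had an intron cluster in at least 1 replicate and served as the comparison. All 3 libraries were immunoprecipitated with a MATR3 antibody from untreated, wild-type HEK293 cells, an established line of human embryonic kidney origin. There was no control library and RNA abundance was not analysed here, so a gene with many clusters could be strongly bound or abundant and these cannot be told apart.

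MATR3 is a nuclear matrix protein with RNA recognition motifs and zinc fingers, and it is known as a regulator of splicing that binds pyrimidine-rich intronic RNA. In PAR-CLIP, cells take up 4-thiouridine, ultraviolet light crosslinks it to the bound protein, and the crosslinked uridines are read as T-to-C changes. A 3' UTR lies between the stop codon and the poly(A) tail and is present both in nuclear and in cytoplasmic mRNA, whereas introns are removed in the nucleus.

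Most sites were found in a single library, in the 107 genes and in the comparison genes. Overlapping clusters of the replicates joined into 793 sites. Of these, 644 (81.2%) came from 1 replicate, 137 (17.3%) from 2 and 12 (1.51%) from all 3. Of 10425 sites in the comparison genes, 84.3%, 13.7% and 2.04% came from 1, 2 and 3 replicates. A site from all 3 was found in 11 of the 107 genes (10.3%) and in 14.5% of the comparison genes. Joining can chain clusters, and 9 of the 12 sites had at least 1 base covered in all 3 replicates, over 5 to 55 nt. The bases covered in all replicates are printed below for sites with at least 11 such bases, because these are the positions on which the libraries coincide. Longer stretches are shown by their central 30 nt. They run 5' to 3' on the RNA strand in DNA letters of hg38, and capitals mark T, the only base that can show a conversion.

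MED22, chr9:133343543-133343572, minus strand: ccaaTTcgTgacccacTcagccTTaTccac
TSEN34, chr19:54193406-54193435, plus strand: cTTTcTggaTgTTccccagcTcTTcTcTgg
ATXN7L3B, chr12:74539075-74539104, plus strand: TggcTgagcagagcccTcTTccTTgcccTc
SPRYD4, chr12:56472205-56472234, plus strand: gTgggaaagcagcTagagTTgccTagaTca
SPRYD4, chr12:56475729-56475758, plus strand: cTaTTaaTaccTcacaggTTgacTagcccT
SALL2, chr14:21521400-21521422, minus strand: TTccTcTTTcaagaccccTaccc
BRIX1, chr5:34925570-34925580, plus strand: cTaaTacTaTc

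The MED22 site held 47, 22 and 11 reads in replicates 1, 2 and 3, and 15.2% of its T positions in reads were converted. It lay 514 nt past the stop codon of a 3' UTR of 3210 nt that belongs to an alternative transcript, and in the canonical transcript the same bases are intron. The TSEN34 site held 11, 20 and 17 reads with 7.48% conversion, 71 nt past the stop codon. TSEN34 encodes a subunit of the tRNA splicing endonuclease, and its printed stretch has 12 T in 30 nt against 6 in the first SPRYD4 stretch. That SPRYD4 site had the higher conversion, at 17.7% over 27, 13 and 8 reads. The second SPRYD4 site had 8, 9 and 10 reads and 13.4% conversion, and it lay 6166 nt past the stop codon of a 3' UTR of 10131 nt. The BRIX1 site, in the transcript of a ribosome biogenesis factor, had 6, 18 and 22 reads and the lowest conversion of the 12 sites, 4.33%. The highest, 19.2%, belonged to the site in H2AFX, the gene of the H2AX histone variant, where the 3 replicates shared 6 nt. The position of highest signal that the authors' tables give differed by a median of 36.5 nt between the replicates at the 12 sites, and at 0 of them did it agree within 10 nt.

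The absence of intron clusters rests on the deposited gene names, so it was set against gene models of GENCODE release 44. Of the 107 genes, 30 (28.0%) had a single exon in the canonical transcript, against 1 of the comparison genes (0.0763%). In CREBZF and TSPYL1, both among the 30, other transcripts leave 17587 and 3082 nt of the gene outside all exons, and CREBZF had 2 clusters across an exon-intron boundary. A further 20 had 2 exons. Among the 77 genes with a canonical intron, 57 had no cluster of any name inside it and 20 had at least 1. In 9 genes such clusters stood under another gene's name or under no annotation. ARPC4, a subunit of the Arp2/3 actin-nucleating complex, had 43 clusters in its introns under the read-through gene ARPC4-TTLL3. SLC5A3, the sodium/myo-inositol cotransporter gene, had 27 under MRPS6, and RBM27 had 26 under a clone-based name. CHMP3, a subunit of the membrane-remodelling ESCRT-III complex, had 14 under RNF103-CHMP3, C22orf29 had 14 under GNB1L, and GIGYF1 had 15 without annotation. Other genes had clusters of their own name in another class there: 22 clusters of MED22, called 3' UTR, lay in introns of its canonical transcript, the site printed above among them. These held 422 reads over the 3 replicates. All 3' UTR clusters of ATPIF1 (7 with 222 reads) and of MBD1 (6 with 110 reads) also lay in canonical introns, as did 2 of FAU with 16 reads. In addition, 12 genes had 20 clusters that ran across an exon-intron boundary. After removal of every gene with a cluster outside its canonical exons or across a boundary, 76 of the 107 remained. The label "not introns" therefore holds for the deposited names of all 107 genes and for the annotated models of 76.

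The genes were short in introns. The canonical introns summed to a median of 1474 nt, against 27471 nt in the comparison genes, and the median span was 7596 nt against 37997 nt. The 3' UTRs were of more similar length, with medians of 2412 and 2969 nt. The share of genes that met the rule fell with each step of intron length, from 30 of 31 genes without a canonical intron (96.8%) over 13 of 21 with introns under 1000 nt (61.9%) and 28 of 238 with 3000 to under 10000 nt (11.8%) to 1 of 166 with at least 100000 nt (0.602%). Intron length bears directly on the chance of an intron cluster, so these values describe the rule and were not tested. The few genes with long introns and no cluster in them under any name included TTC34 with 156928 nt of intron and 39 reads in the 3' UTR over the 3 replicates. TFCP2L1, a transcription factor gene, had 59329 nt and 30 reads, and IGDCC4, an immunoglobulin superfamily membrane protein gene, had 35101 nt and 90 reads. All 107 genes are annotated as protein coding.

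**Figure D1:**
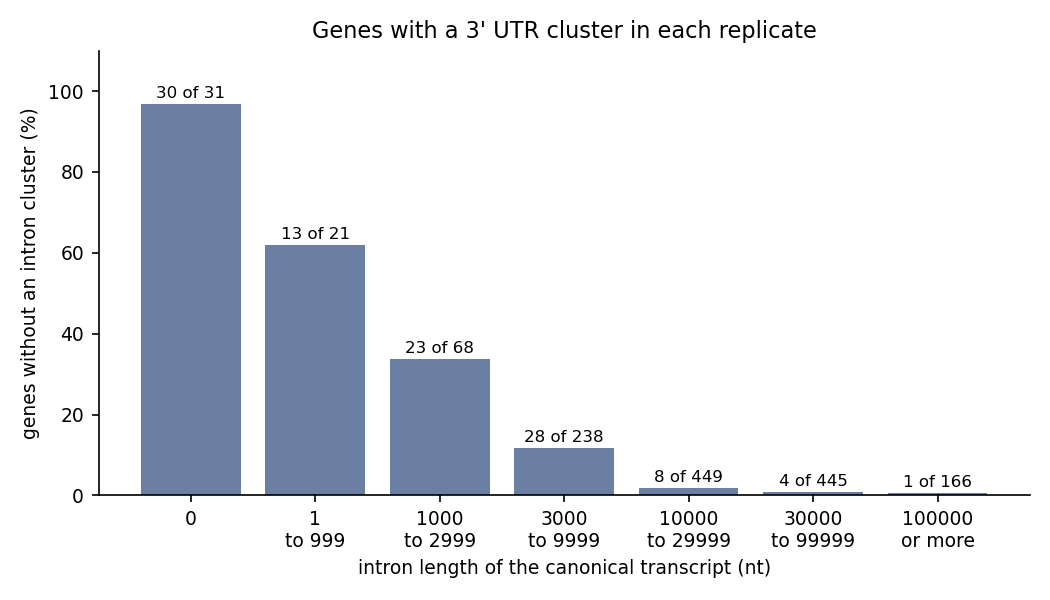
Share of genes without an intron cluster (y axis, percent) among genes with a 3' UTR cluster in each replicate, by summed intron length of the canonical transcript (x axis, nt). Bars are labelled with the number of genes without an intron cluster of all genes in the class, and the share falls from 96.8% without canonical introns to 0.602% at 100000 nt or more.

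Each cluster in the tables has at least 4 reads, and many genes stood near that minimum. Just outside it, 50 comparison genes had exactly 1 intron cluster over the 3 replicates, with 5 to 31 reads and a median of 8, while the median comparison gene had 28 intron clusters. Just inside it, 12 genes had exactly 1 3' UTR cluster in each replicate, and 23 genes had 4 to 6 reads in their lowest replicate. At the other end, 38 genes had at least 2 3' UTR clusters in each replicate.

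The 107 genes had 315, 313 and 340 3' UTR clusters in replicates 1, 2 and 3, of 6462, 6400 and 6847 3' UTR clusters in all. These held 4512, 4663 and 5490 reads, which is 5.05% ± 0.38 (SD, n = 3) of all 3' UTR reads. The median gene had 23, 24 and 32 reads, and the highest had 253, 347 and 312. The 25 genes with the most reads held 53.9% ± 2.66 (SD, n = 3) of the reads. Levels below are 3' UTR reads per 1000000 reads in all clusters of a library, and they are not divided by length.

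MED22, which encodes a subunit of the Mediator complex that links transcription factors to RNA polymerase II, led the list (chr9:133338312-133348131, minus strand). It had 198, 223 and 207 reads, or 134.4 ± 14.0 per 1000000 (SD, n = 3), the values of the 3 replicates lying close together. C22orf29, now named RTL10, is a gene derived from a retrotransposon. Its 96, 347 and 192 reads gave 137.9 ± 86.7 per 1000000, with replicate 2 far above replicate 1. The intronless ATXN7L3B had 164, 105 and 312 reads over a 3' UTR of 7024 nt. TSPYL4, an intronless relative of nucleosome assembly proteins, had 180, 268 and 105 reads. SPRYD4 had 215, 186 and 116 reads on its long 3' UTR. The 5 genes thus overlapped in their levels, and their order is not settled by 3 replicates.

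**Figure D2:**
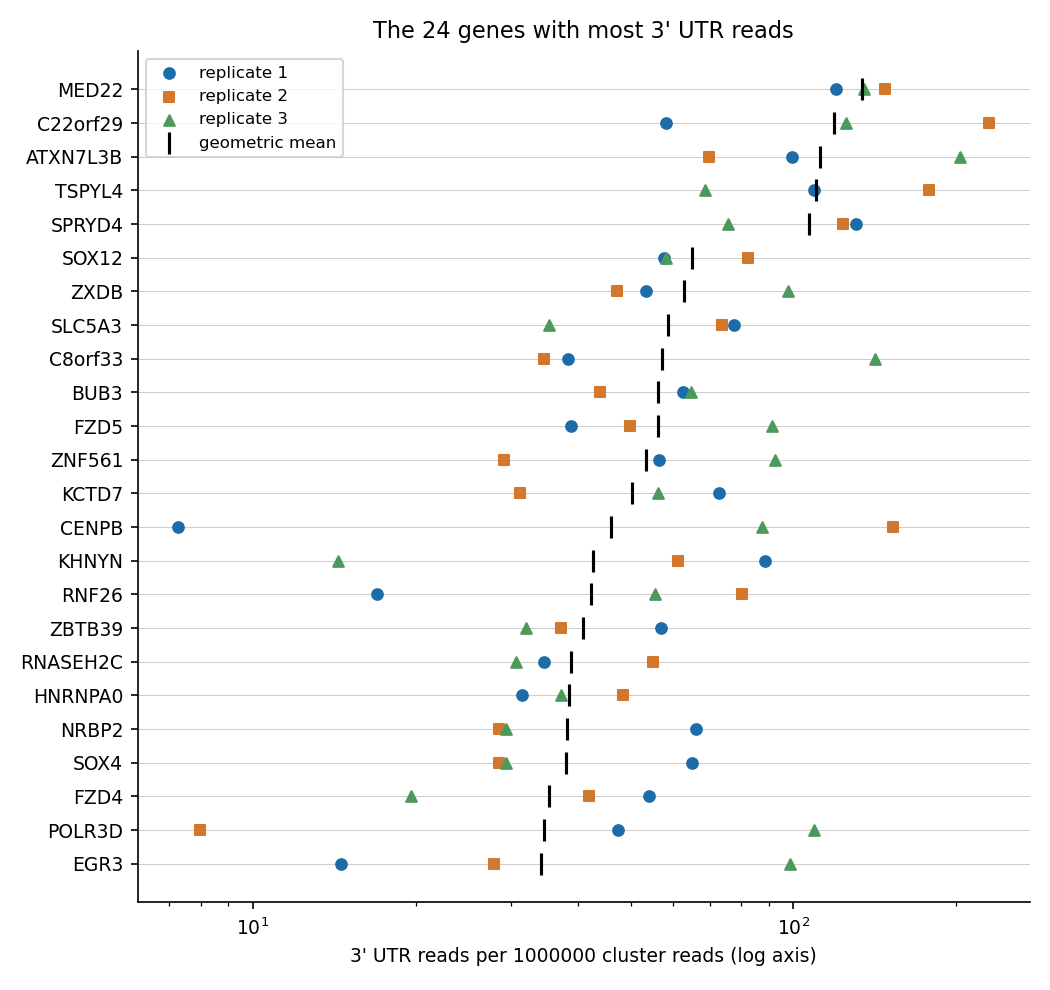
3' UTR reads per 1000000 cluster reads (x axis, log scale) of the 24 genes with the largest geometric mean (y axis). Points are the 3 replicates and black ticks the geometric mean. MED22 lies between 120.1 and 148.0 per 1000000 in the 3 replicates, whereas CENPB spans 7.28 to 152.7.

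The gene lists describe which kinds of genes met the rule. SOX12 and SOX4, HMG-box factors of one subgroup, had 95, 124 and 89 reads and 107, 43 and 45 reads, and SOX21 had 30, 47 and 63. Of 9 SOX and FOX genes with a 3' UTR cluster in each replicate, these 3 met the rule, and all 3 are intronless. The immediate early and growth response list had 4 genes with a 3' UTR cluster in each replicate, of which 3 met the rule. These were EGR3, a zinc finger factor induced by growth signals, with 24, 42 and 151 reads, and FOSB, a subunit of AP-1, with 6, 38 and 54. The third was ZFP36L2, whose protein binds AU-rich elements and promotes mRNA decay, with 28, 7 and 20 reads. Of 56 ZNF zinc finger genes with a 3' UTR cluster in each replicate, 5 (8.93%) met the rule, close to the 7.53% of all genes. ZNF561 had the most reads of these, 93, 44 and 142. The lists of chaperones, glycolysis, cytoskeleton, translation factors and respiratory chain had 3, 3, 3, 6 and 10 genes with a 3' UTR cluster in each replicate, and 0 of them met the rule. Of 4 genes of small GTPases and ubiquitin, 1 met it, FAU, a ubiquitin-like fusion with a ribosomal protein, with 8, 7 and 20 reads. Of 2 histone genes, 1 met it, H2AFX. No HOX gene had a 3' UTR cluster in each replicate. The lists are small, so single genes set these shares.

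The Wnt receptor genes of the Frizzled family were looked at after their values were seen. The 3 Frizzled genes with a 3' UTR cluster in each replicate met the rule, which 7.53% of all such genes did, and their canonical introns are short, with 270 nt in FZD5, 2330 nt in FZD4 and 0 in FZD7. FZD5 had 64, 75 and 140 reads, FZD4 had 89, 63 and 30, and FZD7 had 22, 109 and 29, so none of the 3 was highest in every replicate. FZD3 and FZD6 had 22 and 48 intron clusters and a 3' UTR cluster in 1 replicate each. FRAT2, which encodes a GSK3-binding protein of the same pathway, showed the widest swing, with 253 reads in replicate 1 against 8 and 32.

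Other genes have varied roles. RNASEH2C, a subunit of the enzyme that removes ribonucleotides from DNA, had 57, 83 and 47 reads. RNF26, a membrane-bound ubiquitin ligase, had 28, 121 and 85. KHNYN, a cofactor of the zinc finger antiviral protein, had 146, 92 and 22. MYD88, the adaptor of Toll-like receptors, had 34, 18 and 37, and STAT2, a transcription factor of the interferon response, had 8, 9 and 23. In H2AFX, 91, 8 and 93 reads were found. BUB3, a spindle checkpoint protein gene, had 103, 66 and 99 reads, and BIRC5, the survivin gene, had 22, 45 and 49. CENPB, whose protein binds centromeric satellite DNA, had 12, 230 and 134. HNRNPA0, an intronless gene of the hnRNP family, had 52, 73 and 57. These genes were named by their place among the 25 with most reads, a list or a shared site, apart from MYD88 and STAT2, which were chosen after their values were seen.

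The 3 libraries ordered the genes only in part alike. The Spearman correlation of 3' UTR reads across the 107 genes was 0.437 between replicates 1 and 2, 0.527 between 1 and 3 and 0.446 between 2 and 3. It was 0.575, 0.567 and 0.56 across the 1314 comparison genes. Genes are not independent replicates, and the points share their libraries. The highest replicate exceeded the lowest by more than 5 times in 29 genes and by less than 2 times in 22, with a median of 2.87, against 2.74 in the comparison genes. Longer 3' UTRs had more clusters, with a Spearman correlation of 0.467 across the 107 genes.

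MATR3 reads on these genes were not limited to the 3' UTR. The 3' UTR held 72.2% ± 3.52 (SD, n = 3) of their reads and coding sequence 10.2% ± 1.71. A coding cluster was found in 52 genes in at least 1 replicate and in 14 in each replicate, and 37 genes had 3' UTR clusters only. The largest number of reads outside the 3' UTR belonged to MMP24-AS1, now MMP24OS, with 1519 reads in 62 clusters, called processed transcript or coding. FZD7 had 190 reads in 11 coding clusters. Among the 76 genes without clusters outside canonical exons, the share in the 3' UTR was 82.9%. Conversion per T position was 14.4% ± 0.26 in coding and 10.5% ± 0.25 in 3' UTR sequence of the same genes (SD, n = 3), and the ranges did not overlap. Coding clusters also held less T, 20.6% ± 0.60 of bases against 29.9% ± 0.88, and the part of base composition in the difference was not tested. Reads with T-to-C made up 80.2% ± 1.88 and 81.2% ± 3.26, a difference smaller than the spread.

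The 3' UTR clusters of the 107 genes were then set against those of the 1314 comparison genes on 9 measures that the rule does not use. Each difference was tested within replicates by an exact two-sided sign-flip test, in which 3 replicates allow no p below 0.25, so no difference could pass 0.05. The clusters were of like size, with a median of 10.7 reads in the 107 genes and 11.0 in the comparison genes. The difference had one sign in all 3 replicates and exceeded its SD for 6 of the measures: position, reads with T-to-C, conversion, overlap between replicates, T content and ATCTT density. For conversion, overlap, T content and ATCTT density it fell within its SD under some of the alternatives given below. Clusters of the 107 genes lay closer to the stop codon. Their median position was 42.3%, 43.5% and 45.4% of the 3' UTR in replicates 1, 2 and 3, against 49.9%, 48.5% and 48.3%, a difference of -5.14 percentage points ± 2.36 (SD, n = 3; exact p = 0.25). Along the shortest annotated 3' UTR the difference was -8.75 percentage points. Beyond 66.7% of the length lay 23.1% ± 1.92 of their clusters, against 30.9% ± 0.79 of those of the comparison genes (SD, n = 3).

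**Figure D3:**
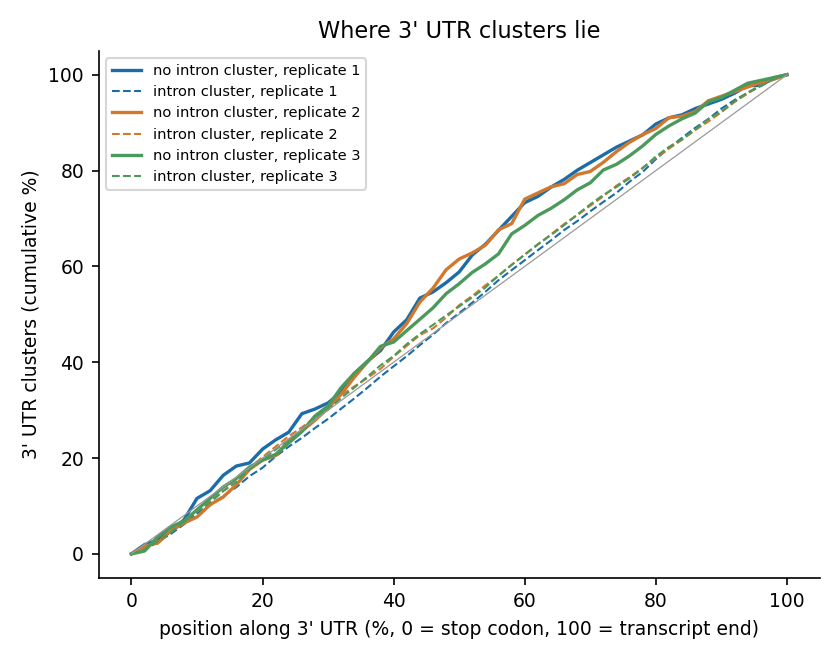
Cumulative share of 3' UTR clusters (y axis, percent) by position of the cluster midpoint along the 3' UTR (x axis, percent from stop codon to transcript end), for genes without (solid) and with (dashed) intron clusters in each replicate. The thin diagonal is an even spread. The solid lines lie above the dashed lines between 40% and 90% of the length and meet them near the end.

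The position of clusters along single 3' UTRs differed from gene to gene. In ATXN7L3B the cluster farthest from the stop codon lay at 2831, 735 and 2952 nt in replicates 1, 2 and 3, of a 3' UTR of 7024 nt, whereas those of SPRYD4 were spread along the length. The clusters of MED22 lay in 2 annotated 3' UTRs, of 3210 and 3193 nt, so their positions do not describe a single stretch. In SLC5A3, the cluster nearest to the stop codon lay 2078, 1959 and 2599 nt from it, of 8905 nt.

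**Figure D4:**
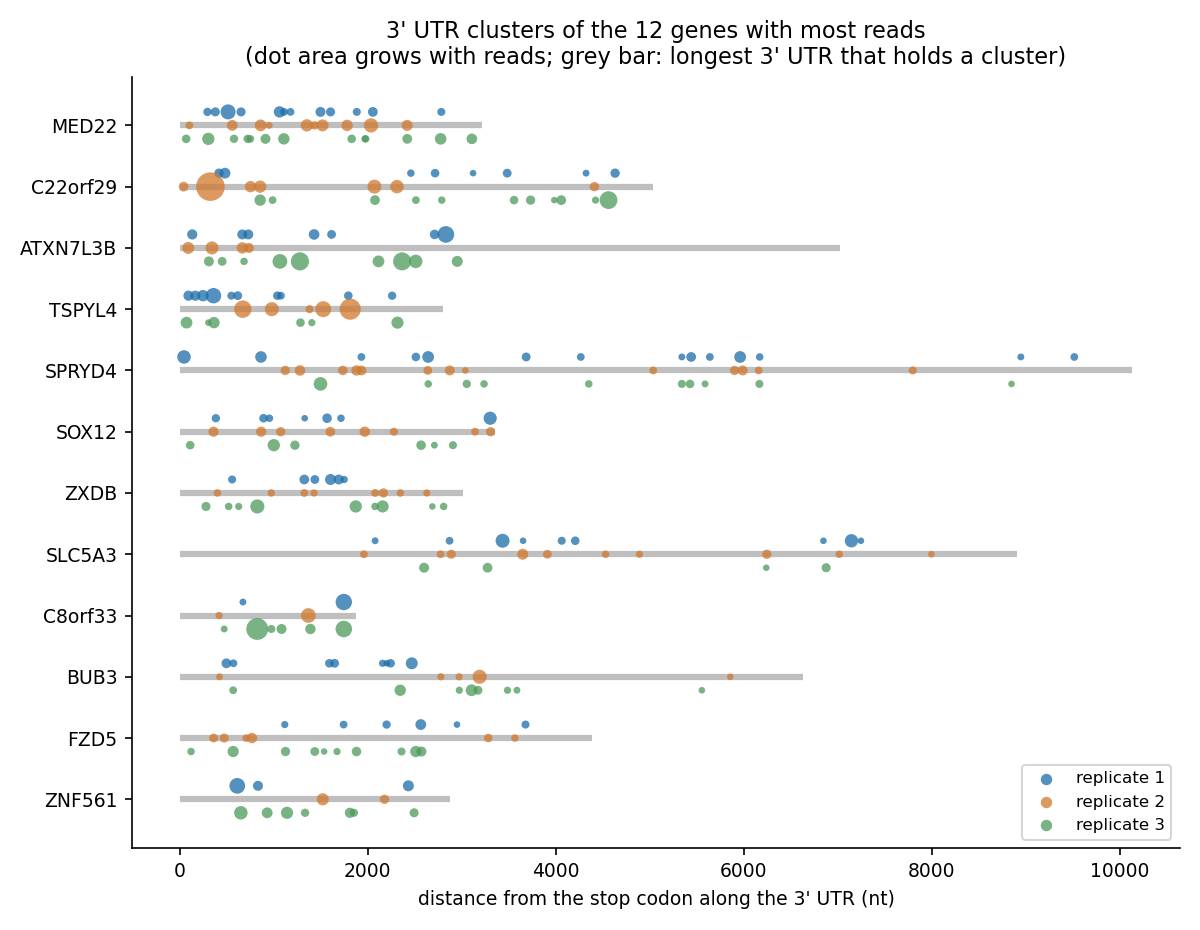
3' UTR clusters of the 12 genes with most reads by distance from the stop codon (x axis, nt). Grey bars are the longest annotated 3' UTR that holds a cluster, dots are cluster midpoints coloured by replicate, and dot area grows with reads. In most rows the replicates fall at different places.

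Reads with T-to-C made up 84.9%, 78.6% and 80.2% of reads in the 107 genes and 77.3% ± 0.83 in the comparison genes (difference 3.93 percentage points ± 2.44, SD, n = 3; exact p = 0.25). Conversion per T position was 10.2%, 10.6% and 10.7%, against 10.3% ± 0.29 (difference 0.21 ± 0.19; exact p = 0.25, n = 3), and in replicate 2 the classes were nearly equal. This difference took the opposite sign, -0.35 ± 0.09, against comparison genes with under 10000 nt of intron. Averaged over the 2 other replicates, the share of clusters that overlapped a 3' UTR cluster of the other replicate was 18.4% ± 0.75 against 16.7% ± 0.20 (difference 1.62 ± 0.55; exact p = 0.25, n = 3). Overlap with neither was found for 66.5% ± 1.5 of clusters against 70.6% ± 0.34 (SD, n = 3). Overlap with both other replicates ran the other way in every replicate, with 3.49%, 2.88% and 3.24% of clusters against 3.999%, 4.42% and 3.81%. The difference in averaged overlap fell to -0.44 without the 10 genes with most reads and to -1.47 against short-intron comparison genes. Reads per distinct read did not separate the classes, at 2.66 ± 0.38 and 2.67 ± 0.34 (difference -0.016 ± 0.054; exact p = 0.75, n = 3).

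**Figure D5:**
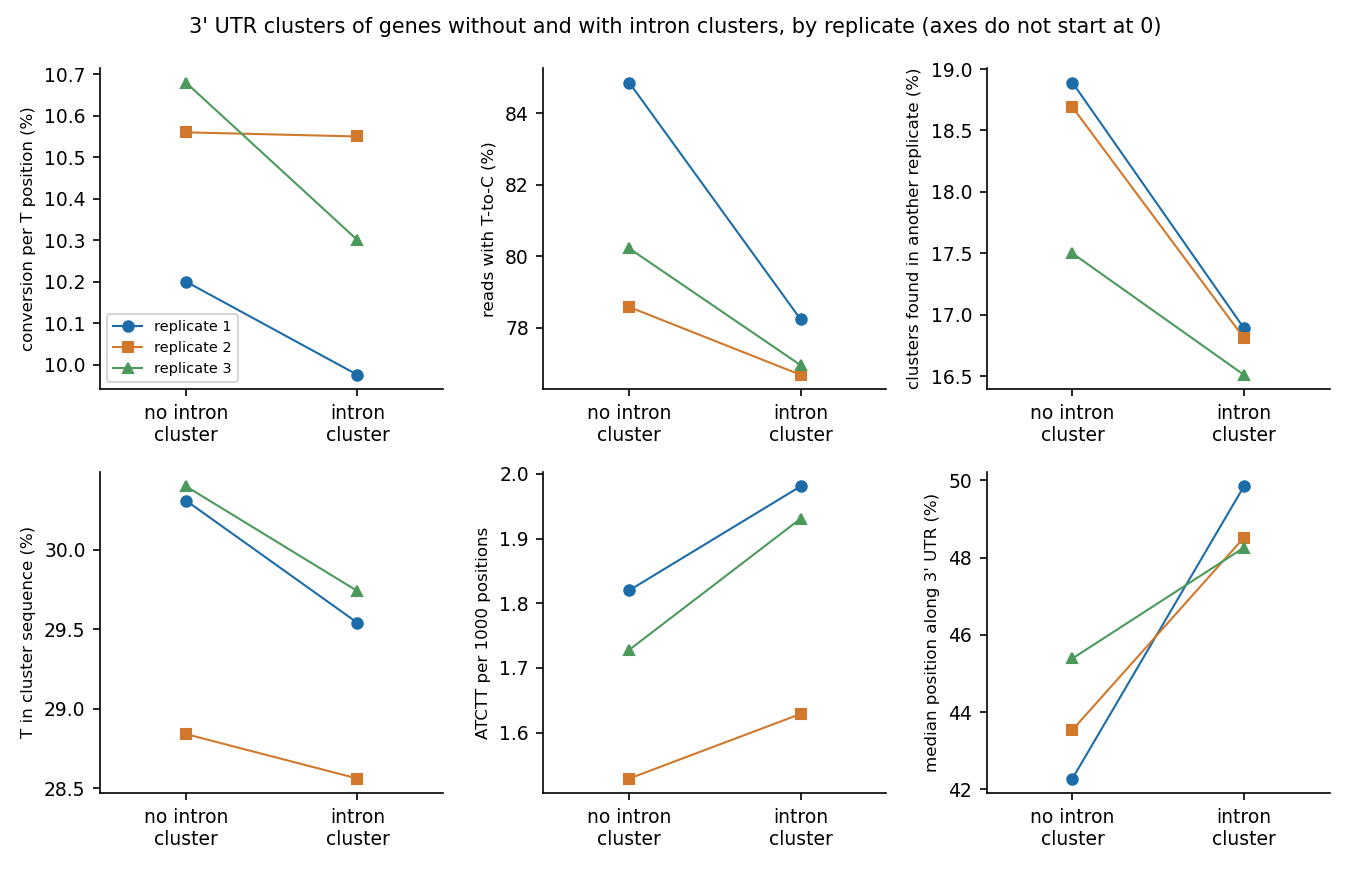
Values of 6 measures in 3' UTR clusters (y axes, units as labelled, not starting at 0) of genes without and with intron clusters (x axes), with a line for each replicate. The share of clusters found in another replicate is averaged over the 2 other replicates. All lines run in the same direction within each panel, and conversion in replicate 2 is nearly flat.

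Conversion was also taken gene by gene. Among 34 of the genes with at least 20 reads in each replicate, it ran from 5.25% ± 1.56 in HNRNPA0 over a median of 11.2% to 16.7% ± 7.20 in NAT8L (SD, n = 3), an N-acetyltransferase gene. SALL2, a zinc finger factor gene, had 6.07% ± 2.72. The NAT8L values of 8.67%, 22.6% and 18.8% show how wide a single gene can spread, and the median SD within a gene was 1.75 percentage points. HNRNPA0 stayed at 6.67%, 3.57% and 5.50%, below the median of 11.2% in every replicate. By exon number, single-exon genes had 10.03% ± 0.07 conversion and 31.1% ± 0.46 T, and genes with at least 3 exons 10.7% ± 0.16 and 28.8% ± 1.02 (SD, n = 3).

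The base composition of the clusters differed from that of the canonical 3' UTRs of the same genes, in which not all of the clusters lie. Clusters of the 107 genes had 20.9% ± 0.16 A and 25.95% ± 0.71 C (SD, n = 3), whereas the canonical 3' UTRs of the same genes had 25.5% A and 22.1% C. T was at 29.9% in both. A cluster needs 2 places with a conversion to be in the tables, so stretches without T could not appear. ATCTT, the DNA form of a pentamer known to be bound by MATR3, occurred 1.69 ± 0.15 times per 1000 start positions in clusters and 1.36 times in the whole 3' UTRs. ATTTA, the core of AU-rich elements, occurred 1.14 ± 0.10 times in clusters and 1.91 times in the whole 3' UTRs. The comparison genes had the same direction for both pentamers, with 1.85 ± 0.19 and 1.13 ± 0.11 in clusters against 1.40 and 1.94 in their 3' UTRs. Counts were small: ATCTT was found 27.7 ± 1.15 times per replicate in the clusters of the 107 genes.

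Between the classes, T content was 29.9% ± 0.88 in the 107 genes and 29.3% ± 0.63 in the comparison genes (difference 0.57 ± 0.26; exact p = 0.25, n = 3), higher in all 3 replicates. It was 2.12 percentage points higher than in comparison genes with under 10000 nt of intron. GC content was 49.3% ± 0.95 and 49.7% ± 0.45 (difference -0.41 ± 0.58; exact p = 0.5, n = 3), within the spread. It was lower by more than its SD against short-intron comparison genes (-2.45 ± 0.78) and in the 76 genes without clusters outside canonical exons (-0.84 ± 0.53). ATCTT was less dense in the 107 genes in all 3 replicates (difference -0.15 ± 0.05 per 1000; exact p = 0.25, n = 3), and ATTTA differed by 0.01 ± 0.02 (exact p = 1.0, n = 3). The ATCTT difference was 0.10 ± 0.28, of the opposite sign, against short-intron comparison genes. The 10 pentamers with the largest ratio of density over the comparison genes occurred only 1 to 5 times per replicate in the 107 genes. The pseudocount raises the ratio of such rare pentamers in the smaller class, so nothing is read from their order.

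Of 9 fixed markers of HEK293 cells, 4 had a cluster of any class, SOX4 among them, and 1 had one in each replicate. Of 9 markers of mature kidney cells, 2 had a cluster and 0 had one in each replicate. The 1 marker with a cluster in each replicate is SOX4, which is among the 107 genes and so had one there by the rule. No other marker of either list did. Clusters show bound RNA and not expression, so these counts cannot decide the label.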

How the data were processed

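MATR3 PAR-CLIP was measured in 3 biological replicates of HEK293 cells. The authors deposited one cluster table per replicate, and per the file headers its read, distinct read and conversion values are raw counts per cluster. The deposited T-to-C read share is a fraction. The deposited mode score was not used. The submitters' processing notes name hg38, and all 133088, 131679 and 124040 cluster sequences equalled hg38 at the deposited coordinates. Aligner, caller and annotation release are not given in the sources used here. Deposited clusters had at least 4 reads, 2 conversion locations and 20 nt, and clusters hold 1649124, 1506682 and 1532602 reads; library depth is unknown. Reads carry no molecular identifiers, so counts can include copies of one molecule.

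Genes were chosen by annotation class and gene name as deposited. The rule, the gene lists and the comparisons were chosen with earlier results of these data known. Gene models came from GENCODE release 44, and 6 genes carried older symbols, found in a RefSeq table. Conversion is conversion events over all T positions in reads. Positions used the longest annotated 3' UTR that holds a cluster midpoint. Pentamers were searched on the RNA strand only, ATCTT and ATTTA included, and ratios used a pseudocount of 1. Differences were taken within replicates and tested by exact sign-flip tests, 9 in all, so that no adjustment could bring one under 0.05. Scripts were tested on simulated data for conversion, reads with T-to-C, T and GC content and position. Pentamer density, reads per distinct read and the joining of sites were not simulated. Named genes were the 25 with the largest geometric mean of reads per 1000000, members of the fixed lists and genes with a site shared by all replicates; any other was picked with its values in view. One of these 25 genes is not reported here. The deposited position of highest signal was a T in only 29.2%, 26.5% and 25.0% of clusters, so shared stretches were printed in place of windows around it. Analyses used Python 3.11.15, pandas 2.3.3 and NumPy 2.4.6. Alternatives covered cluster minimums, gene classes, aggregation, overlap, 3' UTR choice and leaving out each replicate.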

Additional observations from a re-analysis of the deposited data

How the results depend on the processing

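Of 99 alternatives for the comparison of gene classes, 87 kept the sign of the difference and 12 did not. Leaving out a replicate cannot turn a difference that has one sign in every replicate. For such measures these alternatives did not test the sign and show only the size. The position, reads with T-to-C, T and GC content kept the sign in all that were run, with replicates left out in turn giving -6.28 to -3.92, 2.58 to 4.95, 0.47 to 0.71 and -0.71 to -0.13. Their size moved: the position difference was -8.75 along the shortest annotated 3' UTR, T content 1.11 with the 76 genes below and 2.12 against short-intron comparison genes, and GC content -0.84 and -2.45. Against comparison genes with under 10000 nt of intron, chosen after seeing the data, conversion per T turned to -0.35, overlap with another replicate to -1.47, ATCTT density to 0.0966 and reads per distinct read to 0.00154. Without the 10 genes with most reads, overlap turned to -0.435 and reads per distinct read to 0.00793. Reads per distinct read also turned to 0.0213 as a median over genes, to 0.00232 with the 76 genes without clusters outside canonical exons, and to 0.0255 with clusters of 10 to 20 reads; without single replicates it ran from -0.0419 to 0.0118. ATTTA density turned to -0.021 with clusters of at least 10 reads and ran from -0.00187 to 0.0166 without single replicates. Without single replicates, conversion ran from 0.12 to 0.31, overlap from 1.44 to 1.94 and ATCTT density from -0.18 to -0.13. The cause of these turns was not tested. Some differences kept the sign and fell within their SD. For conversion these included the 76 genes (0.05 ± 0.11), the median over genes (0.14 ± 0.21) and clusters of at least 10 reads (0.23 ± 0.24). ATCTT density did so with at least 3 distinct reads (-0.08 ± 0.18) and at least 10 reads (-0.12 ± 0.13). T content and overlap did so with clusters of 10 to 20 reads (0.65 ± 0.78 and 1.7 ± 2.7). Medians over genes of pentamer density were 0 in both classes and were not compared.

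The number of genes depends on the rule: 218 genes met it with a 3' UTR cluster in at least 2 replicates, 173 with intron clusters allowed in 1 replicate, and 161 to 189 with 1 replicate left out. Counting only clusters with at least 3 distinct reads gave 108 genes, 77 of them shared with the 107, and at least 10 reads gave 89, with 48 shared. The share of reads in the 3' UTR was 82.9% in the 76 genes and 70.8% to 74.2% without single replicates. No paired analysis was possible because all 3 samples belong to 1 group, so none can be paired across groups; gene classes were compared within each replicate. With 4 reads as the deposited minimum, a gene without an intron cluster may hold intron reads below it.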
